A study of Mus musculus with 12 samples.

Results

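The effect of Ehd1 knockdown on gene expression was compared between resting and lipopolysaccharide (LPS)-treated mouse bone marrow-derived macrophages, gene by gene. The quantity described here is the difference of 2 siRNA effects: the change from control siRNA to Ehd1 siRNA after LPS minus the same change in resting cells. It used all 12 libraries of the series, 3 in each of 4 groups, and 12164 genes that passed a filter on low counts were tested. The difference passed the threshold in 735 genes, which are the genes described below.

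EHD1 is an ATPase of the Eps15 homology domain family that shapes endosomal membranes and helps return internalised receptors to the cell surface. LPS is a bacterial cell wall component that binds Toll-like receptor 4 and activates NF-kB, which drives inflammatory cytokines, and interferon regulatory factors, which drive type I interferon. Interferon then acts back on the macrophage through its receptor, the JAK kinases and the transcription factors these activate, and resting macrophages keep a low level of this signal without any stimulus.

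The macrophages came from male C57BL/6J mice aged 8 weeks. The 4 groups were siControl without LPS (called M0 by the submitters), siEhd1 without LPS, siControl with LPS (called M1) and siEhd1 with LPS. All groups therefore received an siRNA. Bulk RNA was sequenced after polyA enrichment and deposited as raw read counts per gene. The siRNA sequences and the dose and time of LPS were not given in the sources used here, and whether replicates came from separate mice or cultures was not stated, and the p-values therefore speak to variation among libraries alone, technical variation included. The resting and the LPS libraries were deposited in separate tables, and any handling that differed between those sets cannot be told apart from LPS. In bulk RNA, fewer cells of a type and less RNA per cell cannot be told apart either.

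Library totals ranged from 18572725 to 22545272 counts. The macrophage genes Csf1r (the receptor for colony-stimulating factor 1), Spi1 (the transcription factor PU.1), Cd68, Adgre1 (F4/80), Itgam (CD11b) and Lyz2 (lysozyme) were all detected in every library, with Csf1r between 3559 and 4647 CPM (counts scaled for library size). Levels below are CPM scaled with trimmed mean of M-values (TMM) factors, effects are log2 ratios of siEhd1 to siControl from edgeR's quasi-likelihood fit, and adjusted p-values are Benjamini-Hochberg values over all 12164 genes with a threshold of 0.05. A positive difference means that the siEhd1 effect lay higher after LPS than at rest.

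The targeted gene was measured first. Ehd1 (chr19:6276725-6300096, + strand, GRCm38) stood at 53.2, 52.0 and 54.4 CPM in the resting siControl libraries and at 33.6, 32.0 and 28.9 CPM with siEhd1. After LPS it stood at 678, 631 and 550 CPM with siControl and at 282, 318 and 304 CPM with siEhd1. The siEhd1 libraries lay below their controls without overlap in both states, and LPS-treated siEhd1 cells still held more Ehd1 RNA than resting control cells. Expressed as a share, 59.2% of the control level of Ehd1 remained at rest and 48.7% remained after LPS. The effect on Ehd1 was -0.76 (SE 0.08) at rest and -1.04 (SE 0.07) after LPS, and the difference of -0.28 (SE 0.10) did not pass the test (adjusted p = 0.12). Its unadjusted p by edgeR was 0.0135, and it did pass under 1 of 21 alternatives, so an equal knockdown in both states is not shown.

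The siEhd1 effect differed between states in 735 of 12164 genes (6.04%). It lay higher after LPS in 379 genes (3.12%) and lower in 356 genes (2.93%), of which 33 and 47 differed at least 2-fold. The median difference over all genes tested was 0.002. For comparison, the siEhd1 effect itself passed the test in 3430 genes at rest (28.2%, with 14% higher and 14.2% lower) and in 1040 genes after LPS (8.55%, with 4.44% higher and 4.11% lower). The LPS effect passed in 8370 genes with siControl (68.8%) and in 8144 genes with siEhd1 (67%). These comparisons share libraries with the difference and are given for scale only. When libraries were scaled by their totals alone, 315 genes lay higher and 445 lower (41.4% higher, against 51.6% with TMM). More genes also lay lower than higher without resting siControl replicate 3 (365 and 418) and without resting siEhd1 replicate 3 (358 and 394). The higher count fell from 379 to 243 without resting siEhd1 replicate 1. The lower count fell from 356 to 209 without resting siControl replicate 1, 210 and 221 without resting siEhd1 replicates 1 and 2, and 235 and 236 without LPS siEhd1 replicates 1 and 3.

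**Figure D1:**
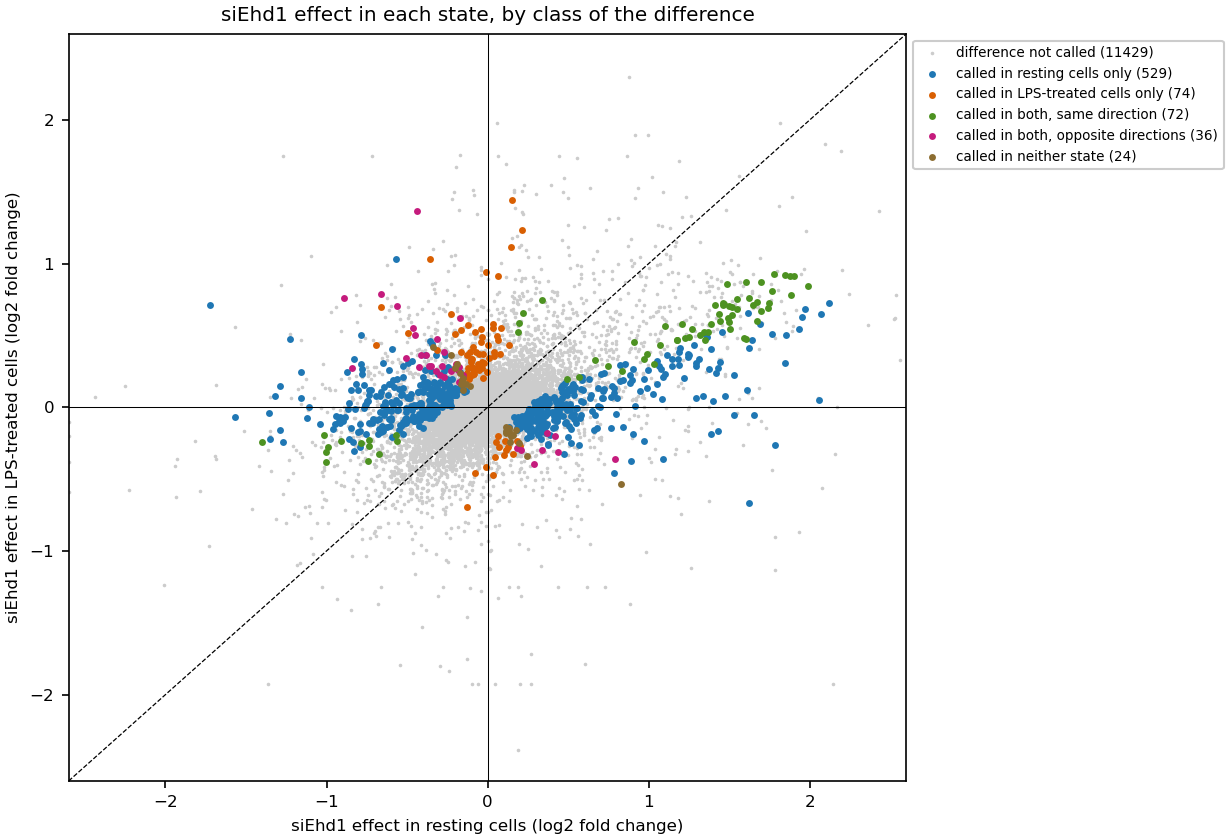
The siEhd1 effect in resting cells (x axis, log2) is plotted against the effect in LPS-treated cells (y axis, log2), 1 point per gene, with the 735 genes whose difference passed the test coloured by class and the remaining genes in grey. The dashed line marks equal effects. The resting-only genes lie above it where siEhd1 lowered them (264) and below it where siEhd1 raised them (265), and 28 genes fall outside the axes.

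The 735 genes were sorted by the state in which the siRNA effect itself passed the test. An effect was called at rest and not after LPS in 529 genes (4.35% of genes tested), which is 264 lower (2.17%) and 265 higher (2.18%) with siEhd1. An effect was called after LPS and not at rest in 74 genes (0.608%), which is 16 lower and 58 higher. Effects of opposite direction were called in 36 genes (0.296%), and effects of 1 direction but unequal size in 72 genes (0.592%). The remaining 24 genes had a called difference and a call in neither state.

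The difference test is what separates these classes from a count of calls. In all, 2767 genes were called at rest and not after LPS, and the difference was called in 529 of them. A missed call is also no evidence of an absent effect: in the LPS state, 70 of the 264 lower and 78 of the 265 higher resting-only genes had an unadjusted p under 0.05. Without resting siControl replicate 1 the resting-only count was 305, and without resting siEhd1 replicate 1 it was 320. Without LPS siEhd1 replicate 1 the LPS-only count was 37.

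Interferon-induced antiviral genes gave the most called differences of the 26 gene lists described here, and most of them fell with siEhd1 at rest while few were called after LPS. For every list below, the shares over all genes tested serve for comparison: the difference was higher in 3.12% and lower in 2.93%. At rest 14% rose and 14.2% fell with siEhd1, and after LPS 4.44% rose and 4.11% fell. Of 47 interferon-induced antiviral effectors that passed the filter, 32 had a higher siEhd1 effect after LPS and none a lower one, with a median difference of 0.54. At an unadjusted p under 0.05 these counts were 41 and 1, and over all alternatives the number of called members with a higher effect ranged from 27 to 39. At rest 39 of the 47 fell and 1 rose, with a median effect of -0.50. After LPS 1 fell and 1 rose, with a median effect of 0.03. Summed over the list, the effectors stood at 6812 to 7352 CPM in resting siControl libraries and at 4929 to 5413 CPM in resting siEhd1 libraries. After LPS the sums were 15390 to 16250 CPM with siControl and 16150 to 16400 CPM with siEhd1, so the groups lay apart at rest and met after LPS.

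Ifi44, an interferon-induced gene with antiviral activity, had 23.1, 20.4 and 23.3 CPM in resting siControl libraries and 9.31, 7.47 and 9.32 CPM with siEhd1. After LPS its levels were 108, 129 and 136 CPM with siControl and 123, 120 and 119 CPM with siEhd1. The groups were separate at rest, while after LPS the siEhd1 values lay inside the control range. The effect on Ifi44 was -1.36 (SE 0.10) at rest and -0.04 (SE 0.08) after LPS, a difference of 1.31 (SE 0.13, adjusted p = 9.2e-06).

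Ifit3b encodes a protein of the IFIT family, which binds foreign RNA. It stood at 32.2, 28.3 and 36.7 CPM at rest with siControl and at 13.2, 10.7 and 17.7 CPM with siEhd1. After LPS it stood at 41.0, 46.8 and 46.3 CPM with siControl and at 65.5, 62.0 and 58.8 CPM with siEhd1. The order of the groups was thus turned round, but the LPS-state effect of 0.48 just missed the threshold (adjusted p = 0.052, between 0.00095 and 0.17 under other settings). The difference of 1.70 (SE 0.20, adjusted p = 6e-04) was called under every alternative. Its near-identical neighbour Ifit3 differed by 1.41 (SE 0.20), and reads could be split between these copies.

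Oas3 and Oasl2 belong to the oligoadenylate synthetase family, whose enzymes make the messenger that activates RNase L (Oasl2 is a relative of these enzymes). Oas3 fell from 424, 408 and 458 CPM to 217, 227 and 239 CPM at rest. After LPS it was 906, 998 and 890 CPM with siControl and 855, 857 and 876 CPM with siEhd1. All siEhd1 values of Oas3 were below all control values in both states, but the gap after LPS was small and its effect of -0.11 (SE 0.06) did not pass the test, against -0.92 (SE 0.06) at rest. Oasl2 fell in both states, with effects of -1.01 at rest and -0.19 after LPS, and its difference was 0.82 (SE 0.08, adjusted p = 4.4e-06). The LPS-state call of Oasl2 was lost under 7 of the 20 other settings that gave a value (adjusted p from 0.012 to 0.13), while its difference was called under those 20.

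Sensors of foreign nucleic acid and the IFI200 family, whose members bind DNA or assemble inflammatory complexes, followed the same pattern. Of 20 genes that passed the filter, 14 had a higher effect after LPS and none a lower one (14 and 0 at an unadjusted p under 0.05), with a median difference of 0.57. At rest 16 fell (median -0.48), and after LPS 1 rose and none fell (median 0.03). Zbp1, a sensor of left-handed nucleic acid that can trigger cell death, had 37.9, 33.2 and 34.6 CPM at rest with siControl and 15.03, 15.07 and 18.5 CPM with siEhd1. After LPS Zbp1 had 291, 288 and 327 CPM with siControl and 271, 292 and 296 CPM with siEhd1, with overlapping groups. Its difference was 1.04 (SE 0.11). Pydc3 and Pydc4, which carry pyrin-type domains and resemble each other closely, differed by 1.44 and 1.23, and Mnda by 0.78. The single riser after LPS, AI607873, is described with the genes of opposite direction.

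Guanylate-binding proteins and immunity-related GTPases, which attack the vacuoles of intracellular pathogens, fell in 14 of 16 cases at rest (median -0.66) and in 3 of 16 after LPS (median -0.09). The difference was higher in 10 and lower in none, with a median of 0.56. It was higher in 6 without resting siEhd1 replicate 1 and in 6 without resting siEhd1 replicate 2, and without LPS siControl replicate 1 a single member lay lower. Irgm1, a regulator of this GTPase family, had 107, 101 and 111 CPM at rest with siControl and 75.7, 80.9 and 85.0 CPM with siEhd1. After LPS Irgm1 had 245, 255 and 290 CPM with siControl and 275, 302 and 273 CPM with siEhd1. The groups were separate at rest and overlapped after LPS, and the difference was 0.51 (SE 0.09, adjusted p = 0.0019). Gbp3 (0.77) and Igtp (0.52) differed likewise, and members of these families share sequence, so that reads could be split between copies.

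The signalling chain that induces these genes showed smaller differences. Of 20 interferon receptor, JAK-STAT and IRF genes, 13 fell at rest (median -0.26) and 2 fell after LPS (median -0.08), and 5 had a higher effect after LPS. That count was 3 without resting siControl replicate 1, resting siEhd1 replicate 1, LPS siControl replicate 3 or LPS siEhd1 replicate 1. Irf7, the factor that amplifies type I interferon, had 329, 301 and 348 CPM at rest with siControl and 169, 179 and 182 CPM with siEhd1. After LPS Irf7 had 2293, 2508 and 2482 CPM with siControl and 2300, 2468 and 2172 CPM with siEhd1, again with overlap. The difference was 0.81 (SE 0.09) for Irf7 and 0.64 (SE 0.09) for Stat2, a transcription factor of this chain.

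Genes of class I antigen presentation fell in 16 of 17 cases at rest (median -0.28) and in 4 after LPS (median -0.12), but the difference was called in 3 (H2-T23, Nlrc5 and Tap1), all higher. H2-T23, a nonclassical class I gene, differed by 0.34 (SE 0.08). For Tap1, a subunit of the peptide transporter, the difference of 0.33 (adjusted p = 0.018) was lost without resting siControl replicate 1 (adjusted p = 0.065), without resting siEhd1 replicate 1 (0.071) and with a replicate block within state (0.054). Nlrc5, the class I transactivator, differed by 0.61, and this call was lost when libraries were scaled by their totals alone (adjusted p = 0.061). None of 12 class II and costimulation genes had a called difference by edgeR, DESeq2 or limma-voom, and 1 had an unadjusted p under 0.05 by edgeR.

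**Figure D2:**
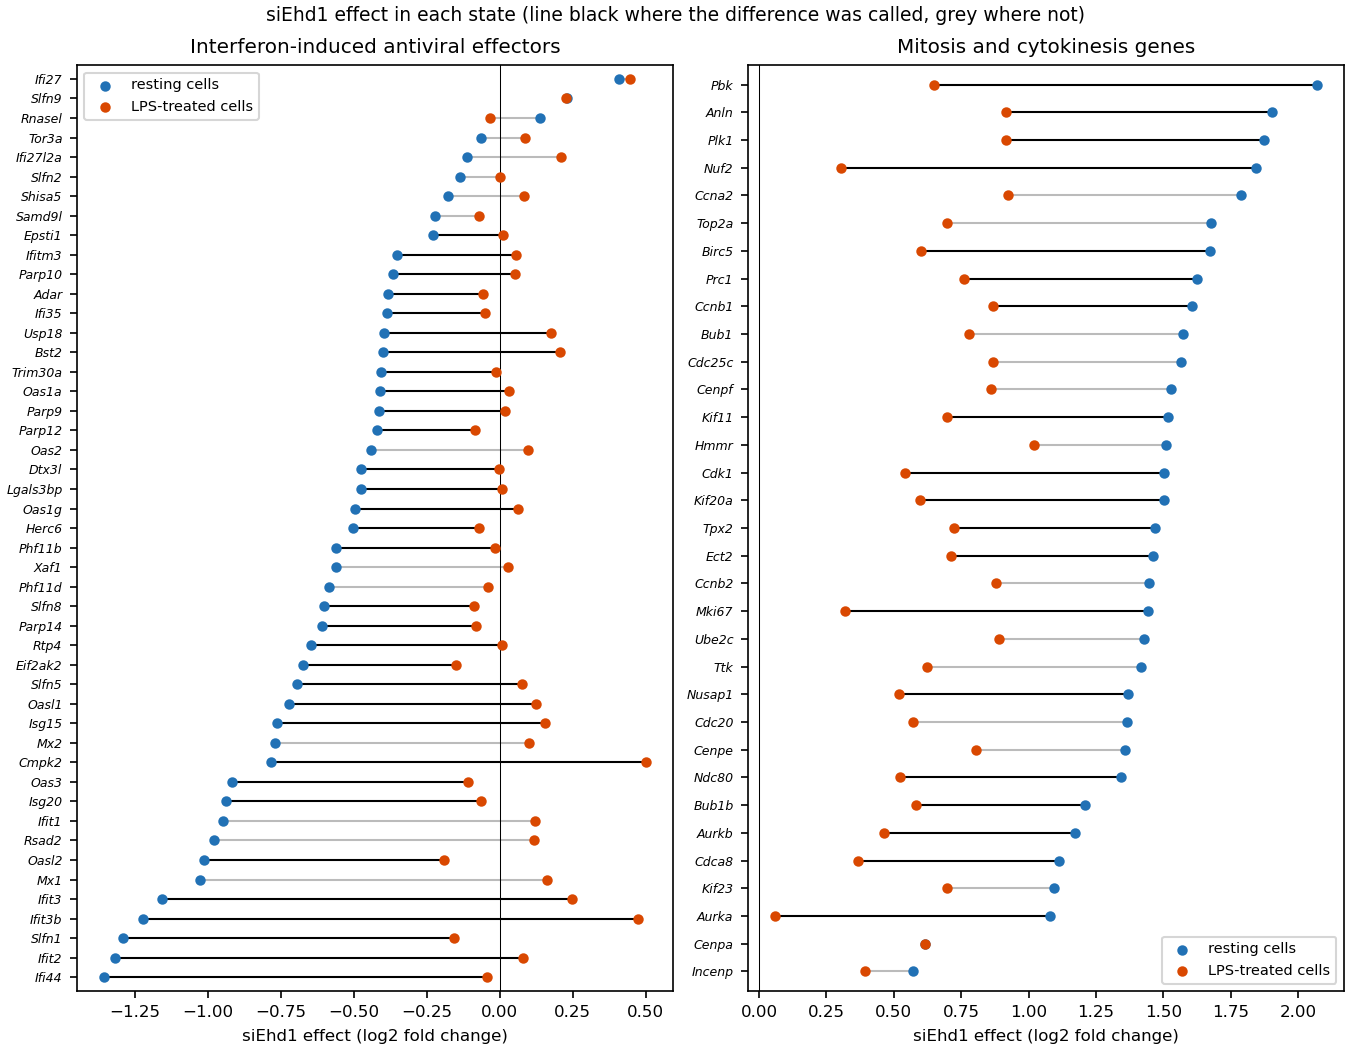
The siEhd1 effect (x axis, log2) of each antiviral effector (left) and each mitosis gene (right) is shown in resting cells (blue) and LPS-treated cells (orange), joined by a black line where the difference passed the test. In 32 of 47 effectors the orange point lies to the right of the blue with a called difference, and in 19 of 33 mitosis genes it lies to the left.

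Promoter sequence was read for genes of these groups because their members moved together at rest. RefSeq promoters (GRCm38.p6, 250 bases before to 50 after each start site) were matched by symbol for 9316 of the 12164 genes tested. The interferon-stimulated response element (ISRE), searched on both strands as 2 GAAA blocks with any 2 bases between them, occurred in 3.91% of these promoters. It occurred in 44 of 197 promoters of genes called lower at rest only (22.3%), in 17 of 35 of the antiviral effectors (48.6%), in 5 of 9 of the sensors (55.6%) and in 9 of 10 of the guanylate-binding and immunity-related GTPases (90%). Among members with a called difference it occurred in 13 of 27 effectors (48.1%), 5 of 6 sensors (83.3%) and 7 of 8 of these GTPases (87.5%). Genes known to be interferon-induced can hold this element whatever their siEhd1 effect, so the list shares are not a test of the difference. The motifs were chosen after the classes were seen. The 250 upstream bases of 4 genes that hold a match are printed 5′ to 3′ on the gene's strand, with matches in capitals, and were picked after the matches were seen. Irf7, Ifi44 and Tap1 held no match in this window. A match describes letters only.
Ifit3b chr19:34607707-34607956 (+ strand, first match 188 bases before the start): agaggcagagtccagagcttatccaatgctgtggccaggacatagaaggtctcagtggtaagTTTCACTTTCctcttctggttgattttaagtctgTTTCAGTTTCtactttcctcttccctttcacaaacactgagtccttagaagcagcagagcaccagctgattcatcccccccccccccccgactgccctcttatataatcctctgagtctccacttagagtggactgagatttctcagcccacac
Oas3 chr5:120777660-120777909 (- strand, match 75 bases before the start): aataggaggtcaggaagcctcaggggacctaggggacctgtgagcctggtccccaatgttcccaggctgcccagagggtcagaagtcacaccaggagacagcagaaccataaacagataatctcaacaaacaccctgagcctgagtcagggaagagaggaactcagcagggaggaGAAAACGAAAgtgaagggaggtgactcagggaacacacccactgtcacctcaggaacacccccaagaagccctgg
Irgm1 chr11:48871421-48871670 (- strand, 2 overlapping matches, the first 30 bases before the start): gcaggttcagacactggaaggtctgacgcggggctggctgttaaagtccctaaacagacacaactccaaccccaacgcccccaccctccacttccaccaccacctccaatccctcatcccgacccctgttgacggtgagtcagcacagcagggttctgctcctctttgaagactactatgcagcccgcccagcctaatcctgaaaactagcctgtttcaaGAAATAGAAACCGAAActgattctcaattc
Stat2 chr10:128270248-128270497 (+ strand, match 222 bases before the start): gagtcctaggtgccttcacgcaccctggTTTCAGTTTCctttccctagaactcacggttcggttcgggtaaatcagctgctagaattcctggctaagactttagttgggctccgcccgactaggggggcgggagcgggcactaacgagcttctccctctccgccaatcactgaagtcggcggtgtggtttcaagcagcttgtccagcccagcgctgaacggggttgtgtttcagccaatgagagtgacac

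Cell division genes made up the other large group, and here siEhd1 raised most genes in both states, with a smaller rise after LPS in the 19 genes whose difference was called. Of 33 genes of mitosis and cytokinesis, 33 rose at rest (median 1.47) and 25 rose after LPS (median 0.70). The difference was lower in 19 and higher in none (29 and 0 at an unadjusted p under 0.05), with a median of -0.79. Of these 19, 14 were called higher in both states and 5 at rest only.

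Birc5, the chromosomal passenger protein survivin, had 4.80, 6.71 and 6.97 CPM at rest with siControl and 21.5, 20.1 and 17.4 CPM with siEhd1. After LPS Birc5 had 4.59, 5.05 and 5.52 CPM with siControl and 8.15, 6.82 and 8.09 CPM with siEhd1. The siEhd1 libraries were higher without overlap in both states, by 1.68 (SE 0.12) at rest and 0.60 (SE 0.14) after LPS. The difference of -1.07 (SE 0.19, adjusted p = 0.0015) was called under every alternative.

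Nuf2, a kinetochore protein that attaches chromosomes to spindle fibres, had 2.86, 4.43 and 5.09 CPM at rest with siControl and 16.6, 14.98 and 12.9 CPM with siEhd1. After LPS Nuf2 had 4.83, 4.21 and 3.71 CPM with siControl and 5.45, 5.28 and 4.99 CPM with siEhd1. The siEhd1 values were higher in both states, but the LPS-state effect of 0.31 (SE 0.18) did not pass the test, and the difference was -1.54 (SE 0.23, adjusted p = 0.00053). Aurka, the kinase that builds the spindle poles, rose by 1.08 at rest and had an LPS-state effect of 0.06 (SE 0.11), a difference of -1.02. Nek2, a centrosomal kinase, differed by -1.10, Ccnf (cyclin F) by -1.13, and Prr11 by -1.14. The LPS-state call of Ccnf was lost under 4 of 20 settings with a value and that of Ckap2l, a spindle protein, under 11 of 21, while both differences were called under all of these.

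Genes of DNA replication and nucleotide synthesis rose in 34 of 36 cases at rest (median 1.01) and in 13 after LPS (median 0.49), where 1 fell. Their difference was lower in 7 and had a median of -0.49. This count was not stable. It was 0 without resting siEhd1 replicate 1 or without LPS siEhd1 replicate 1 or 3, 1 without resting siEhd1 replicate 2, 3 and 4 without resting siControl replicates 1 and 2, 2 without LPS siControl replicate 2 or 3 or LPS siEhd1 replicate 2, and 16 and 13 without the third resting siControl and siEhd1 replicates. A replicate block within state gave 2. Tk1 (thymidine kinase) differed by -0.72 (adjusted p = 0.025). Its call was lost without resting siEhd1 replicate 1 or 2, LPS siControl replicate 3, or any of the 3 LPS siEhd1 replicates, with adjusted p-values from 0.055 to 0.069.

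The cell cycle gene homology region (CHR), searched as TTTGAA on both strands, occurred in 14.3% of all promoters, in 28 of 46 promoters of genes called higher in both states (60.9%) and in 20 of 26 of the mitosis genes (76.9%). It occurred in 3 of 28 promoters of the DNA replication list (10.7%), in 5 of 10 of the guanylate-binding and immunity-related GTPases (50%) and in 11 of 35 of the antiviral effectors (31.4%). Among mitosis genes with a called difference it occurred in 11 of 15 (73.3%). Ccnf is printed because both of its matches lie before the start site. Nuf2, Birc5 and Nek2 held none in this window.
Ccnf chr17:24251410-24251659 (- strand, first match 130 bases before the start): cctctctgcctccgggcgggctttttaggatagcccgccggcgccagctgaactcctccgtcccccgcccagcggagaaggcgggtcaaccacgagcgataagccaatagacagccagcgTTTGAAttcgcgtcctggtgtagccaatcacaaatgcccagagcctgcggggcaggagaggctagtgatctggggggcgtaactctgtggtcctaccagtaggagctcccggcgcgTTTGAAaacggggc

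A few amino acid and stress-response genes rose at rest with siEhd1 and were not called after LPS. Of 26 genes of the unfolded protein and integrated stress response, 4 had a lower effect after LPS (Asns, Atf4, Chac1 and Mthfd2) and none a higher one (8 and 0 at an unadjusted p under 0.05), and the list's median difference was -0.09. With a replicate block within state 2 were lower. Asns, which makes asparagine, had 5.41, 7.15 and 10.3 CPM at rest with siControl and 17.0, 18.0 and 13.7 CPM with siEhd1. After LPS Asns had 17.2, 17.7 and 16.4 CPM with siControl and 12.1, 14.2 and 13.7 CPM with siEhd1. The siEhd1 libraries were the higher ones at rest and the lower ones after LPS, both without overlap, and the LPS-state effect of -0.36 (SE 0.17) did not pass the test. The difference for Asns was -1.44 (SE 0.24, adjusted p = 0.0036).

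Atf4, the transcription factor that drives this response, rose by 0.35 at rest and differed by -0.51 (SE 0.09). Slc7a5, the carrier of large neutral amino acids, had 1.80, 2.28 and 2.89 CPM at rest with siControl and 7.64, 7.81 and 6.56 CPM with siEhd1. After LPS Slc7a5 had 4.24, 3.67 and 3.09 CPM with siControl and 3.39, 3.48 and 3.73 CPM with siEhd1, which overlap. Its difference of -1.71 (SE 0.23, adjusted p = 0.00011) was called under every alternative that gave a value. Mthfd2, a mitochondrial folate enzyme, differed by -1.57 (adjusted p = 0.011), which was lost with a replicate block within state (adjusted p = 0.097).

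The amino acid response element, searched as TGATGNAA on both strands, occurred in 2.83% of all promoters and in 6 of 24 promoters of the stress-response list (25%). Among members of that list with a called difference it occurred in 2 of 4. It occurred in 13 of 205 promoters of genes called higher at rest only (6.34%) and in 12 of 197 of those called lower at rest only (6.09%). In the antiviral effectors it occurred in 4 of 35 (11.4%). These shares are not a test of the difference. Asns is printed with its match in capitals. Atf4 and Mthfd2 held none in this window.
Asns chr6:7693210-7693459 (- strand, match 23 bases before the start): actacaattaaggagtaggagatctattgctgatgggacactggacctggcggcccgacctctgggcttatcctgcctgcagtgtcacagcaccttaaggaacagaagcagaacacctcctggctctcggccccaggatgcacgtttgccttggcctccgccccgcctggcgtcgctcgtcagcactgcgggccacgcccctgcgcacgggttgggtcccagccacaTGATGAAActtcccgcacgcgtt

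Of 24 glycolysis and hypoxia-inducible factor targets, 8 rose and 4 fell at rest, and 3 fell and none rose after LPS. Over all genes tested the difference was lower in 2.93%. In this list 6 had a lower effect after LPS (Hif1a, Ldha, Pdk1, Pgk1, Slc16a3 and Tpi1) and none a higher one, with a median difference of -0.20, and the count was 3 without resting siEhd1 replicate 1. Of these 6, 5 were called higher at rest only, while Hif1a was called lower after LPS only. Pdk1, a kinase that holds pyruvate back from the mitochondrion, had 47.7, 55.2 and 59.0 CPM at rest with siControl and 92.8, 91.4 and 81.6 CPM with siEhd1. After LPS Pdk1 had 143, 127 and 125 CPM with siControl and 135, 140 and 138 CPM with siEhd1. The groups were separate at rest and overlapped after LPS, with a difference of -0.65 (SE 0.10, adjusted p = 0.00059). Of 23 genes of matrix, proteases and tissue repair, Timp2 and Vcan had a higher effect after LPS and Col4a1, Col4a2 and Tgfbi a lower one. Over all genes tested these shares were 3.12% and 2.93%. The lower count was 1 without resting siControl replicate 1 or 3, any resting siEhd1 replicate, LPS siControl replicate 2 or LPS siEhd1 replicate 1 or 3, and with a replicate block within state. Col4a2, a basement membrane collagen, had 4.53, 6.14 and 5.53 CPM at rest with siControl and 13.1, 16.5 and 17.3 CPM with siEhd1. After LPS Col4a2 had 9.27, 11.3 and 10.03 CPM with siControl and 9.18, 10.5 and 9.69 CPM with siEhd1. The groups of Col4a2 were separate at rest and overlapped after LPS, and the difference was -1.58 (SE 0.18, adjusted p = 1.4e-05).

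More genes of cholesterol export fell than rose at rest with siEhd1. Of 22 cholesterol efflux and liver X receptor (LXR) targets, 11 fell and 3 rose at rest (median -0.16), and 3 rose and none fell after LPS (median 0.03). The difference was higher in 5 (Abca1, Apoc2, Apoe, Nr1h3 and Rxra), all called lower at rest only, with a list median of 0.19. Apoe, the apolipoprotein that carries exported cholesterol, had 6110, 5260 and 5628 CPM at rest with siControl and 2958, 3373 and 3588 CPM with siEhd1. After LPS Apoe had 1166, 990 and 865 CPM with siControl and 1160, 1229 and 1238 CPM with siEhd1. Resting groups were far apart and LPS groups overlapped, and the difference was 1.04 (SE 0.13, adjusted p = 0.00021). Abca1, the cholesterol transporter at the cell surface, differed by 0.41 (SE 0.09), and Nr1h3, which encodes LXR alpha, by 0.45 (SE 0.08).

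Macrophage surface genes differed in the same direction. Of 28 identity genes, 11 fell and 1 rose at rest, 2 fell and 2 rose after LPS, and 7 had a higher effect after LPS (median 0.18). Without resting siEhd1 replicate 1 the count was 4. Fcgr1, the high-affinity receptor for IgG, had 235, 236 and 233 CPM at rest with siControl and 134, 131 and 140 CPM with siEhd1. After LPS Fcgr1 had 1006, 1053 and 1074 CPM with siControl and 1130, 1143 and 1132 CPM with siEhd1. The siEhd1 libraries lay below control at rest and above it after LPS, but the LPS-state effect of 0.12 (SE 0.05) did not pass the test, and the difference was 0.92 (SE 0.07, adjusted p = 4.3e-07). Mertk, a receptor for apoptotic cells, fell by 0.60 at rest and differed by 0.53 (SE 0.10). Siglec1, a sialic acid-binding receptor that was picked out after its values were seen, differed by 0.85 (SE 0.11).

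**Figure D3:**
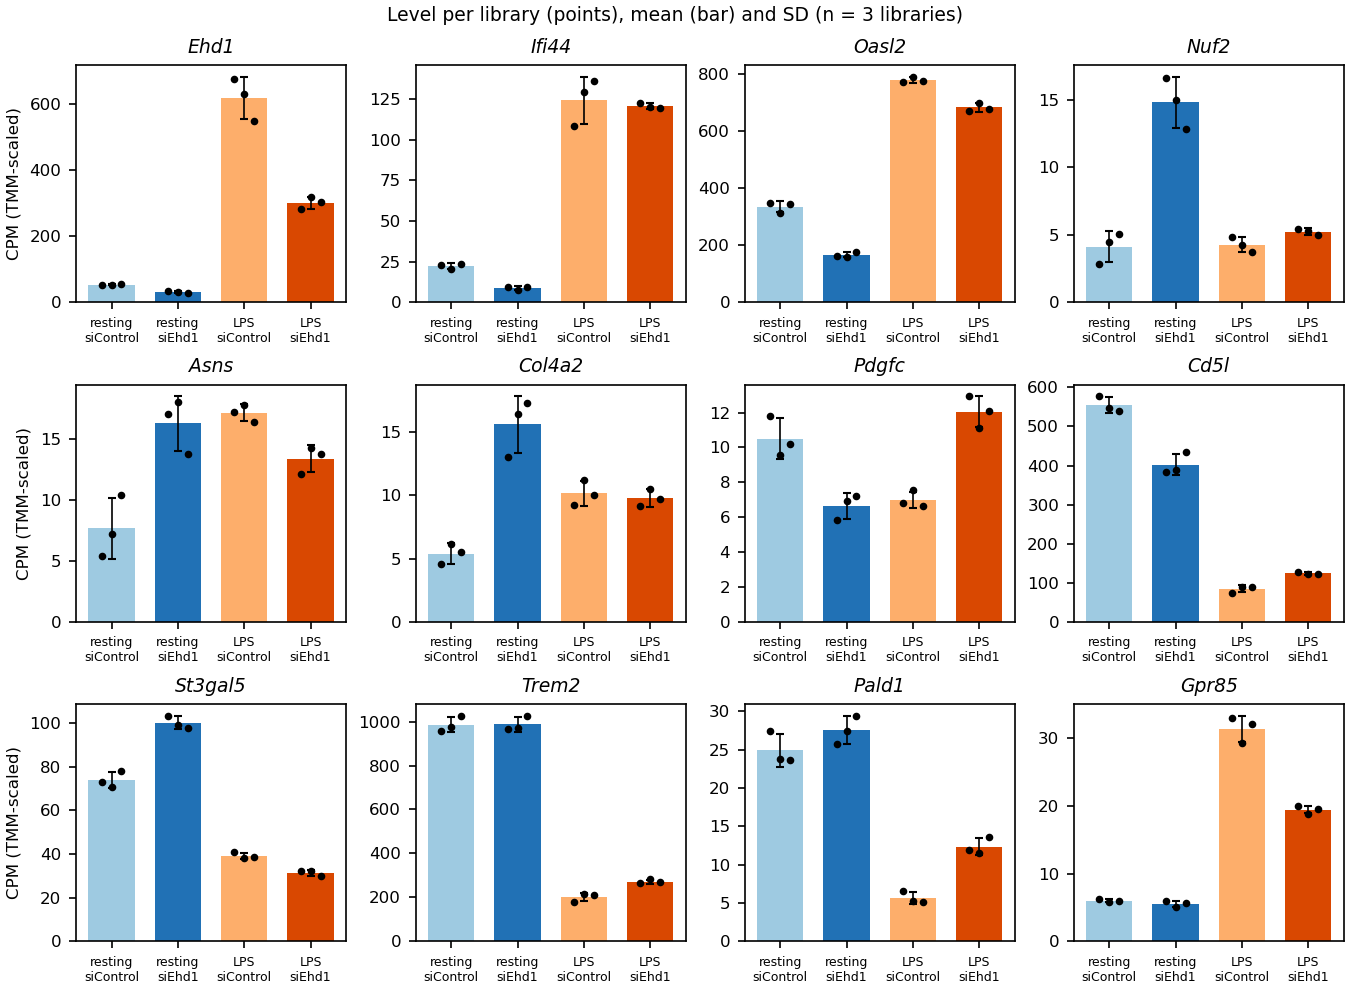
Levels of 12 genes are plotted as TMM-scaled CPM (y axis, from 0) in the 4 groups, with 1 point per library, bars for the mean and error bars for the SD (n = 3). Ehd1 is lower with siEhd1 in both states, Ifi44 and Oasl2 drop with siEhd1 at rest, Nuf2, Asns and Col4a2 rise at rest, Trem2 and Pald1 are higher and Gpr85 lower with siEhd1 after LPS, and Pdgfc, Cd5l and St3gal5 exchange order.

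The siRNA effect was called after LPS and not at rest in 74 genes, 58 of them higher with siEhd1. Trem2, a lipid-sensing receptor, had 960, 974 and 1026 CPM at rest with siControl and 967, 971 and 1028 CPM with siEhd1. LPS lowered it to 180, 213 and 210 CPM with siControl and to 264, 281 and 269 CPM with siEhd1. The resting groups covered nearly the same range and the LPS groups did not overlap, with a difference of 0.43 (SE 0.09, adjusted p = 0.0047). Timp2, an inhibitor of matrix metalloproteinases, followed the same order: its effect was -0.04 (SE 0.06) at rest and 0.45 (SE 0.06) after LPS, and its difference was 0.49 (SE 0.08).

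Pald1, a phosphatase-domain protein, had 27.4, 23.8 and 23.6 CPM at rest with siControl and 25.8, 27.5 and 29.5 CPM with siEhd1. After LPS Pald1 had 6.56, 5.30 and 5.14 CPM with siControl and 11.8, 11.5 and 13.6 CPM with siEhd1. The difference of 0.97 (SE 0.14, adjusted p = 0.00025) came with overlapping groups at rest and separate groups after LPS. The chemokine Ccl4 differed by 0.52 (adjusted p = 0.024), a call lost without resting siControl replicate 1 (adjusted p = 0.064), resting siEhd1 replicate 1 (0.06) or 3 (0.058) or LPS siEhd1 replicate 1 (0.075), and with a replicate block within state (0.057).

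In 16 genes a lower level with siEhd1 was called after LPS and no effect was called at rest. Of these 16, 4 had an unadjusted p under 0.05 at rest by edgeR, as did 9 of the 58 higher ones. Gpr85, an orphan G protein-coupled receptor, had 6.29, 5.83 and 5.88 CPM at rest with siControl and 5.89, 4.995 and 5.62 CPM with siEhd1. After LPS Gpr85 had 32.9, 29.3 and 32.1 CPM with siControl and 19.9, 18.9 and 19.6 CPM with siEhd1, which do not overlap. Its difference was -0.57 (SE 0.12, adjusted p = 0.0082). A 7-base word, GCCTTGT, which an earlier analysis of these data had pointed to, occurred in the 3′ UTR of 6 of 15 genes of this class that could be searched (40%) and in 5 of 11 of those that fell in both states (45.5%), against 16.3% of all genes searched. The share was 14.2% and 11% in genes called lower and higher at rest only, and 19.3% in those higher after LPS only. It was 9.09% in genes higher in both states and 17.4% in those called in neither. Genes of opposite direction had 3.85% (lower at rest) and 0% (higher at rest). Because the word was picked from these same data, these shares are not a test of it. Among the named genes, Gpr85, Osbpl3, Gbp6, Oasl2 and Antxr1 carry the word. So do Aurka, Ccnf and Slc7a5, which rose with siEhd1 at rest, and Spsb1, which rose after LPS. Rxra and Vcan, which were called lower at rest only, carry it too. The part of the word in these results was not tested. Nfkbie, an inhibitor of NF-kB, had an effect of 0.10 at rest and -0.33 after LPS (difference -0.43, SE 0.08). Osbpl3, a lipid-transfer protein, differed by -0.49 (SE 0.09), and Pira6, an immunoglobulin-like receptor with close paralogs, by -0.50 (SE 0.08).

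Opposite directions were called in 36 genes: 28 fell with siEhd1 at rest and rose after LPS, and 8 did the reverse (0.23% and 0.0658% of genes tested). Without resting siEhd1 replicate 1 this count was 21, and without LPS siEhd1 replicate 1 it was 23. Each of the 36 kept its opposite signs and its called difference under every alternative with a value, but only 10 of the 28 and 2 of the 8 kept both single-state calls throughout. These genes had median effects of -0.32 at rest and 0.29 after LPS in the 28, and of 0.36 and -0.29 in the 8.

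Pdgfc, a platelet-derived growth factor, had 11.8, 9.56 and 10.2 CPM at rest with siControl and 5.81, 6.92 and 7.24 CPM with siEhd1. After LPS Pdgfc had 6.80, 7.53 and 6.61 CPM with siControl and 12.9, 11.1 and 12.1 CPM with siEhd1. The groups were apart in both states with the order exchanged: -0.66 (SE 0.11) at rest, 0.79 (SE 0.11) after LPS, and a difference of 1.45 (SE 0.16, adjusted p = 1.2e-05). Across LPS treatment, Pdgfc changed by -0.59 in siControl cells and by 0.86 in siEhd1 cells, a comparison that shares these libraries.

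Tnfsf10, the death ligand TRAIL, had 2.597, 2.76 and 2.50 CPM at rest with siControl and 1.07, 1.45 and 1.70 CPM with siEhd1. After LPS Tnfsf10 had 4.83, 4.36 and 4.85 CPM with siControl and 7.96, 7.98 and 7.86 CPM with siEhd1. The difference was 1.65 (SE 0.21, adjusted p = 7.5e-05), with no overlap in either state. Mamdc2 held 202 to 257 CPM with siControl and 150 to 187 CPM with siEhd1 at rest, while after LPS it held 1.03 to 1.43 and 3.00 to 3.53 CPM, so its difference of 1.80 (SE 0.27) rests on few reads in LPS-treated cells.

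Several of the 28 are secreted or surface proteins of macrophages, picked out here after their values were seen. Cd5l, a secreted protein that protects macrophages from cell death, had 578, 548 and 539 CPM at rest with siControl and 384, 390 and 434 CPM with siEhd1. After LPS Cd5l had 73.8, 89.3 and 89.5 CPM with siControl and 128, 122 and 121 CPM with siEhd1. All libraries were ordered by group in each state, and the difference was 1.02 (SE 0.10, adjusted p = 4.4e-06). Mfge8, a bridge to apoptotic cells, differed by 0.85 (SE 0.09), the Fc receptor gene Fcgr4 by 0.75 (SE 0.08) and the chemokine receptor gene Cxcr4 by 0.71 (SE 0.08). AI607873, an IFI200-family gene, was -0.29 at rest and 0.29 after LPS.

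In the 8 genes of reverse order, St3gal5, a sialyltransferase that makes the ganglioside GM3, had 73.0, 71.0 and 78.1 CPM at rest with siControl and 104, 99.3 and 97.9 CPM with siEhd1. After LPS St3gal5 had 40.8, 38.0 and 38.6 CPM with siControl and 32.2, 32.2 and 29.9 CPM with siEhd1. The order was exchanged with no overlap, for a difference of -0.75 (SE 0.08, adjusted p = 9.7e-06). Adora2b, an adenosine receptor that signals through cyclic AMP, differed by -1.15 (SE 0.18) but held 1.45 to 2.99 CPM at rest. Spred1, an inhibitor of Ras signalling, differed by -0.55 (SE 0.08), and its LPS-state call was lost under 9 of 21 settings. The same holds for Lmo4, a transcriptional cofactor (difference -0.62).

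**Figure D4:**
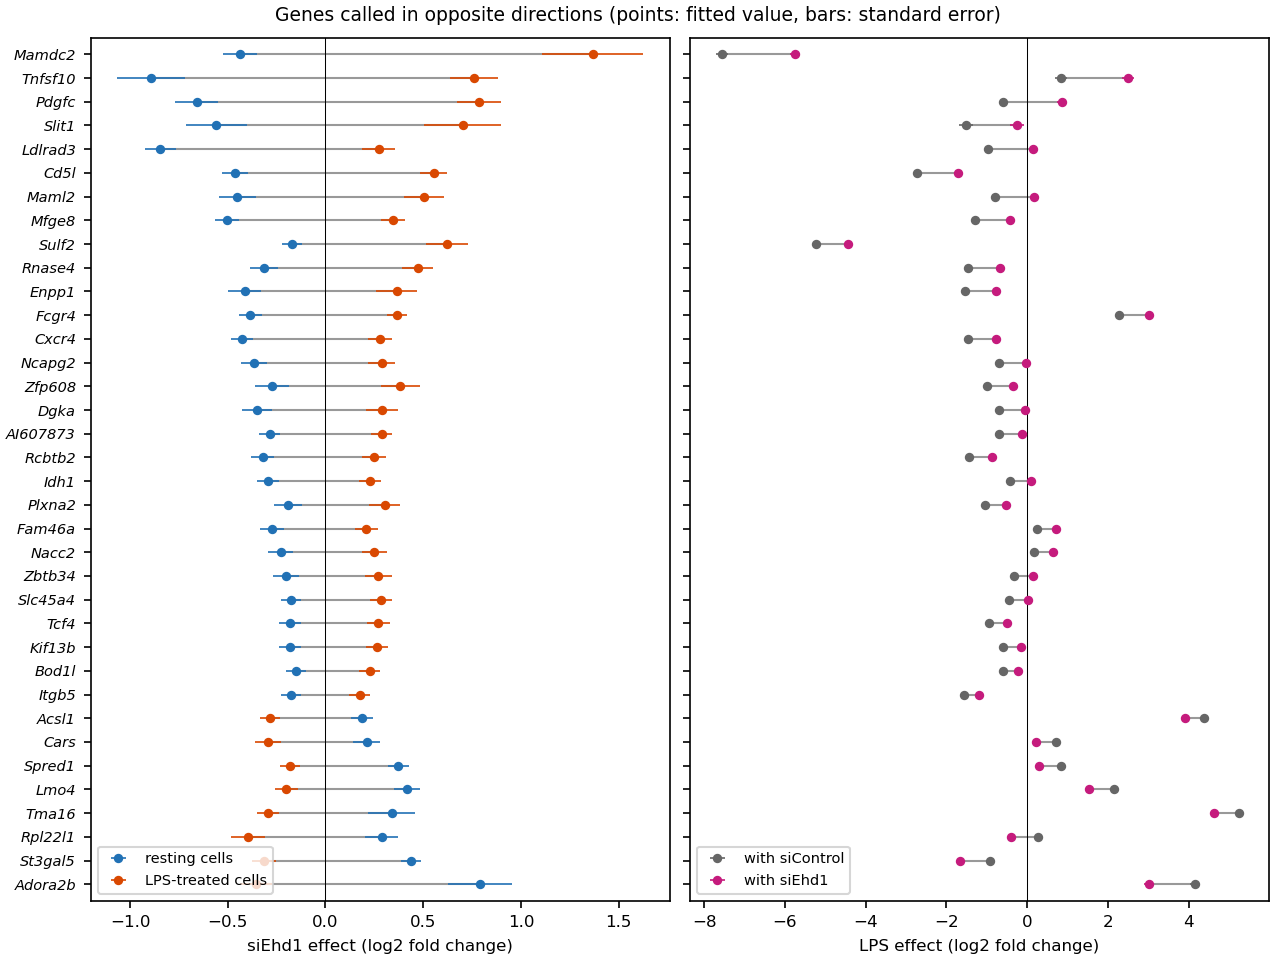
The 36 genes called in opposite directions are ordered by their difference, with the siEhd1 effect in each state on the left and the LPS effect with each siRNA on the right (x axes, log2; points are fitted values and bars standard errors). In the left panel the resting and LPS points lie on opposite sides of 0 for every gene, and the right panel shares the same libraries.

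In 72 genes both effects were called in 1 direction but differed in size. Of these, 59 rose in both states, with a median difference of -0.80, and they include 14 mitosis genes, Birc5 among them. The other 13 fell in both, with medians of -0.78 and -0.25. This class was sensitive to single libraries: it held 31, 43 and 40 genes without LPS siEhd1 replicates 1, 2 and 3, 35 without LPS siControl replicate 2 and 42 without resting siEhd1 replicate 1.

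The scale of measurement matters for the 13 genes and for some genes of other classes. A difference of log2 effects compares proportions, and in 8 of the 13 the fall in CPM was larger after LPS than at rest. Gbp6 fell to 53.2% of control at rest and to 85.2% after LPS, although LPS raised its level from 11.6, 8.86 and 8.33 CPM to 213, 218 and 233 CPM in siControl cells. Its CPM values with siEhd1 were 4.83, 4.82 and 5.66 at rest and 192, 184 and 190 after LPS, and its LPS-state call was lost under 8 of 20 settings with a value. Over all 735 genes, the difference had the same sign in CPM and in log2 in 709 and the opposite sign in 26. The sign was the same in 252 of 264 genes called lower at rest only and 263 of 265 called higher at rest only. It was the same in 57 of 58 genes called higher after LPS only and 56 of 59 higher in both states.

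Inflammatory cytokines and chemokines were read next. Of 29 genes, 9 rose and none fell at rest, 7 rose and 1 fell after LPS, and the difference was called in Ccl4 and Tnf. Over all genes tested, 14% rose at rest, 4.44% rose after LPS and 6.04% had a called difference. DESeq2 called 2 higher and 4 lower in this list. Tnf had 8.93, 9.29 and 7.76 CPM at rest with siControl and 12.5, 10.97 and 9.92 CPM with siEhd1. After LPS Tnf had 41.4, 38.9 and 43.7 CPM with siControl and 40.5, 40.1 and 39.1 CPM with siEhd1. The difference of -0.41 (SE 0.12, adjusted p = 0.043) was lost without any 1 of 9 libraries, namely resting siControl replicates 1 and 3, resting siEhd1 replicates 1 and 2, LPS siControl replicates 1 and 3, and LPS siEhd1 replicates 1, 2 and 3, with adjusted p-values from 0.053 to 0.16. It was also lost with limma-voom (adjusted p = 0.058) and with a replicate block (0.054).

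Il1b, which encodes interleukin-1 beta, had 0.53, 1.80 and 0.96 CPM at rest with siControl and 0.85, 0.94 and 0.51 CPM with siEhd1. After LPS Il1b had 1277, 1355 and 1393 CPM with siControl and 1029, 1006 and 879 CPM with siEhd1. It fell by 0.47 on the log2 scale after LPS with no overlap, and the difference of 0.05 (SE 0.38) did not pass, with resting levels near 1 CPM giving a wide error. Ccl2, a monocyte-attracting chemokine, had 1.80, 4.56 and 6.84 CPM at rest with siControl and 33.1, 27.4 and 16.2 CPM with siEhd1. After LPS Ccl2 had 130, 177 and 202 CPM with siControl and 304, 310 and 259 CPM with siEhd1. Its difference of -1.75 (SE 0.52, adjusted p = 0.099) did not pass by edgeR and did by DESeq2 (adjusted p = 0.04). Nor did that of Cxcl10, an interferon-induced chemokine, at 0.73 (SE 0.29, adjusted p = 0.19). The Cxcl10 difference did pass without resting siEhd1 replicate 3 (0.997, adjusted p = 0.036) and with a replicate block across states (0.016) or within state (0.0045). Il6 was at 0 counts in all resting libraries and Nos2 at or near 0, so neither has a resting effect to compare.

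Endocytic genes were read for their relation to EHD1. Of 27 genes of recycling and EHD partners, the difference was called in Snx27, Sort1 and Vps35, against 6.04% of all genes tested. Sort1 encodes sortilin, a sorting receptor named in the title of the series. It had 101, 102 and 104 CPM at rest with siControl and 63.3, 75.0 and 74.2 CPM with siEhd1, and after LPS 14.8, 16.7 and 14.7 CPM with siControl and 12.5, 14.9 and 15.3 CPM with siEhd1. Groups were separate at rest and overlapped after LPS, where the level was low. The difference of 0.41 (SE 0.11, adjusted p = 0.037) was lost without resting siControl replicate 1, 2 or 3, resting siEhd1 replicate 1, LPS siControl replicate 1 or 3, or LPS siEhd1 replicate 2 or 3 (adjusted p-values from 0.059 to 0.12), and with limma-voom (0.055). Vps35, a retromer subunit, differed by -0.25 (adjusted p = 0.024), and this call was lost without resting siControl replicate 1 or 2, resting siEhd1 replicate 1 or 2, or LPS siEhd1 replicate 1 or 2, and with a replicate block within state (adjusted p-values from 0.054 to 0.099). Snx27, a sorting nexin that returns cargo to the surface, differed by 0.35 (SE 0.07) under every alternative. Ehd4, a close relative of Ehd1, had an effect of 0.04 (SE 0.05) at rest and 0.20 (SE 0.05) after LPS, and the difference of 0.16 (SE 0.08) did not pass.

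**Figure D5:**
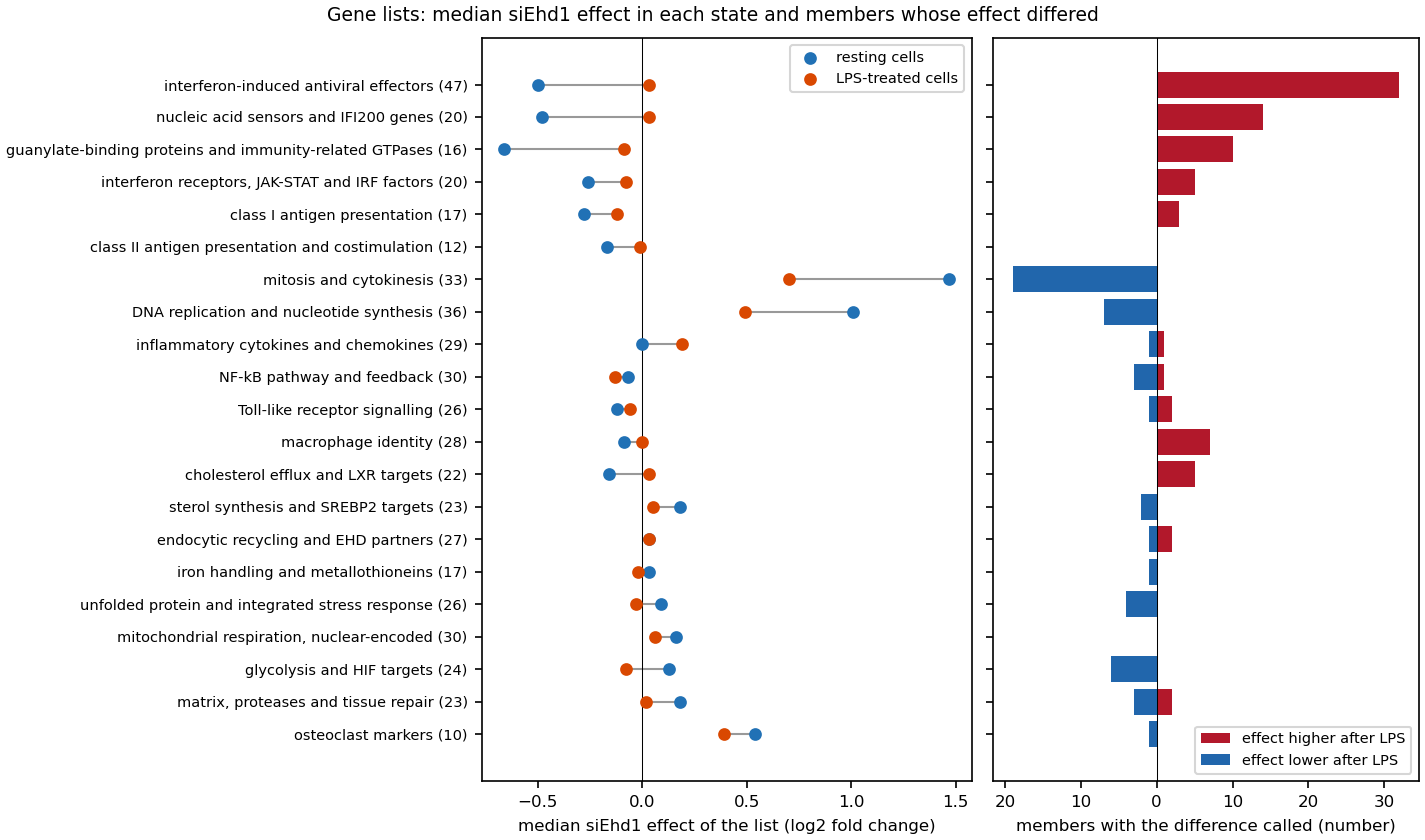
For each gene list, the left panel gives the median siEhd1 effect (x axis, log2) at rest (blue) and after LPS (orange), and the right panel the number of members whose difference passed the test, higher to the right and lower to the left. The numbers in brackets are members that passed the filter, and the antiviral effectors (32 higher) and mitosis genes (19 lower) have the longest bars.

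Signalling lists were mixed, beside 3.12% of all genes tested with a higher and 2.93% with a lower effect after LPS. Of 30 NF-kB genes, 1 had a higher and 3 a lower effect after LPS, with a median of -0.06, and the higher count ranged from 0 to 3 over the alternatives. Of 26 Toll-like receptor genes, 2 had a higher and 1 a lower effect, with a median of 0.02, and the lower call was lost in 13 of 21 alternatives. The higher count was 1 without resting siEhd1 replicate 1 and with a replicate block within state, where Tlr2 was lost (adjusted p = 0.052 and 0.053). Tlr8, a receptor for single-stranded RNA, differed by 0.45 (SE 0.10) under every alternative, and Tnip3, a brake on NF-kB, by -0.63 (SE 0.13). None of 30 nuclear genes of mitochondrial respiration differed by edgeR (3 at an unadjusted p under 0.05), while DESeq2 called 1, limma-voom 0 and scaling by library totals 2.

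Markers of other cell types that a marrow culture could hold were measured as well. Osteoclast markers rose in 7 of 10 cases at rest and in 3 after LPS, with none falling. Their sum was 580 to 689 CPM with siControl and 725 to 808 CPM with siEhd1 at rest, and 265 to 313 CPM and 355 to 378 CPM after LPS, so the groups lay apart in both states. Dcstamp, which macrophages need to fuse, went from 47.9 to 92.5 CPM at rest (group means). In this list the difference was called in Car2 alone (-1.18, adjusted p = 0.048), and it was lost in 13 of 21 alternatives, among them the fits without resting siControl or siEhd1 replicate 1 or 2, LPS siControl replicate 2 or 3, or any LPS siEhd1 replicate (adjusted p-values from 0.071 to 0.18). Dendritic cell markers summed to 402 to 895 CPM, chiefly Itgax and Bst2, which are also macrophage and interferon genes, while Flt3, Zbtb46, Xcr1 and Clec9a were under 1 CPM. Cd207, another marker of this list, averaged 1.04 CPM with siControl and 5.05 CPM with siEhd1 at rest. After LPS it averaged 0 and 0.05 CPM. The neutrophil sum was 14.4 to 22.6 CPM at rest and, after LPS, 43.3 to 74.1 CPM with siControl and 77.6 to 100.3 CPM with siEhd1. Nearly all of it was Mmp8, the one marker of 11 to reach 5 CPM, and Retnlg was at 0 in every library. Lymphocyte markers summed to 4.3 to 10.7 CPM, chiefly Cd4, and Cd3e and Nkg7 were at 0. Of 11 erythroid and mast cell markers, 7 were at 0, and the others summed to at most 2.09 CPM. The stromal and endothelial sum was 15.97 to 30.7 CPM at rest, chiefly Kdr, and 37.4 to 56.8 CPM after LPS, where Kdr averaged 23.7 CPM with siControl and 25.7 CPM with siEhd1. Kdr, a vascular growth factor receptor gene, fell by 0.73 at rest with siEhd1 and differed by 0.85 (SE 0.12). The part of these cells in the differences was not tested.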

How the data were processed

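The data were 12 bulk libraries of mouse bone marrow-derived macrophages, 3 in each of 4 groups taken from the labels. Values are unnormalised counts of reads per gene, as the authors deposited them, in a table for each state. Per the submitters' processing notes, reads were handled with FastQC 0.10.1, Trim Galore 0.6.3 and cutadapt. The same notes name STAR 2.7.6a with mm10, and featureCounts 2.20.0. They also list R 4.4.2 and DESeq2 1.46.0. Which annotation and strand option served for counting, and how reads matching several gene copies were handled, was not given in the sources used here, so genes with close copies or antisense partners are uncertain.

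The tables were joined on 24421 symbols. Counts were analysed with edgeR 4.0.16 in R 4.3.3, using TMM factors, the filterByExpr filter (12164 of 17270 genes with a count), 1 mean per group, robust quasi-likelihood fits with 8 residual degrees of freedom (common biological coefficient of variation 0.0588) and Benjamini-Hochberg adjustment over all genes tested. Standard errors were computed as effect over root F. Levels are CPM with TMM factors, as mean or per library, n = 3. Depth was 18572725 to 22545272 counts per library. Replicates were checked for identity, and no 2 libraries of a group were the same. The labels do not say whether replicate numbers pair the libraries. Deviations of same-numbered libraries had correlations from -0.216 to 0.251 across states, -0.167 to -0.063 within resting and -0.045 to 0.185 within LPS libraries. With 3 libraries a group such correlations can neither show nor exclude pairing, so the main fit had no block and blocks were alternatives.

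The named genes are Ehd1, Ehd4, Sort1 and 8 inflammatory or lipid genes (Il1b, Tnf, Nos2, Il6, Ccl2, Cxcl10, Apoe and Abca1), the 5 largest differences per class with at least 5 CPM in a group (without ribosomal, histone or mitochondrial genes, predicted genes or pseudogenes), and up to 3 called genes per list with the smallest p. Other called list members are named to complete a count. Some genes that met the rule are not reported here. Members and lists were chosen with earlier results of these data known. Alternatives changed the scaling, the filter, the tool (DESeq2 1.42.0, limma-voom with limma 3.58.1), the replicate block and the libraries included. Coordinates are GENCODE vM21 (GRCm38).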

Additional observations from a re-analysis of the deposited data

Results flagged for a closer look

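The siEhd1 effect differed between resting and LPS-treated cells by the test of the difference itself in 379 genes with a higher and 356 genes with a lower effect after LPS. The genes picked for naming that passed this test are given here with their difference on the log2 scale, the LPS-state effect minus the resting effect.

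Genes called lower with siEhd1 at rest and not called after LPS had these differences: Ifit3b (1.70), Flt1 (1.60), Iigp1 (1.498), Pydc3 (1.44), Ifit3 (1.41), Ifi44 (1.31), Pydc4 (1.23), Zbp1 (1.04) and Apoe (1.04). Smaller ones were those of Fcgr1 (0.92), Kdr (0.85), Irf7 (0.81), Oas3 (0.81), Mnda (0.78), Vcan (0.77), Gbp3 (0.77), Stat2 (0.64) and Bst2 (0.61). Then came Nlrc5 (0.61), Mertk (0.53), Igtp (0.52), Irgm1 (0.51), Nr1h3 (0.45), Rxra (0.45), Tlr8 (0.45), Abca1 (0.41) and Tlr2 (0.41). Smaller ones were those of Sort1 (0.41), Snx27 (0.35) and H2-T23 (0.34). Genes called higher with siEhd1 at rest and not called after LPS had these: Slc7a5 (-1.71), Col4a1 (-1.59), Col4a2 (-1.58), Mthfd2 (-1.57), Nuf2 (-1.54), Asns (-1.44), Car2 (-1.18), Aurka (-1.02) and Brca1 (-0.99). Smaller ones were those of Rrm1 (-0.73), Pgk1 (-0.67), Pdk1 (-0.65), Tnip3 (-0.63), Hsd17b7 (-0.54), Atf4 (-0.51), Slc39a14 (-0.41), Tnf (-0.41) and Tnfaip3 (-0.34). Then came Tlr1 (-0.27) and Vps35 (-0.25).

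Genes called lower with siEhd1 after LPS and not called at rest had these: Gpr85 (-0.57), Pira6 (-0.50), Osbpl3 (-0.49), Napepld (-0.48), Nfkbie (-0.43) and Hif1a (-0.34). Genes called higher with siEhd1 after LPS and not called at rest had these: Olfr56 (1.36), Rhoj (1.29), Gcnt2 (1.13), Spsb1 (1.00), Pald1 (0.97), Ccl4 (0.52), Timp2 (0.49) and Trem2 (0.43). Genes that fell at rest and rose after LPS had these: Mamdc2 (1.80), Tnfsf10 (1.65), Pdgfc (1.45), Slit1 (1.26) and Ldlrad3 (1.12). The LPS-state call of Ldlrad3 (edgeR adjusted p = 0.049) was lost under 15 of 21 settings. Genes that rose at rest and fell after LPS had these: Adora2b (-1.15), St3gal5 (-0.75), Tma16 (-0.63), Lmo4 (-0.62) and Spred1 (-0.55). The resting call of Tma16 (edgeR adjusted p = 0.041) was lost under 10 of 21 settings. Genes that fell in both states had these: Irg1 (1.16), Oasl2 (0.82), Antxr1 (0.71), Ms4a4c (0.69), Gbp6 (0.68) and Tap1 (0.33). Genes that rose in both states had these: Prr11 (-1.14), Ccnf (-1.13), Ckap2l (-1.11), Nek2 (-1.10), Birc5 (-1.07) and Tk1 (-0.72). Genes with a called difference and a call in neither state had these: Anapc15 (0.76), Mrgpre (0.60), Npm3 (-0.58), Mr1 (0.49) and Ccdc23 (0.48).

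Of these 91 genes, 59 passed the test under each of the 21 alternatives that gave a value, and 32 lost the call under at least 1. None changed direction.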

How the results depend on the processing

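None of the 91 named genes with a called difference changed direction in any of the 21 alternatives that gave it a value. Lower calls outnumbered higher ones with library totals only (445 and 315) and without resting siControl replicate 3 (418 and 365) or resting siEhd1 replicate 3 (394 and 358), and higher calls did in the others. Leaving out 1 library at a time gave between 243 and 429 genes with a higher siEhd1 effect after LPS and between 209 and 418 with a lower one. It gave 305 to 561 genes called at rest and not after LPS, 37 to 81 called after LPS and not at rest, 21 to 45 of opposite direction and 31 to 95 of the same direction with unequal size. A replicate block shared by both states gave 342 higher and 295 lower, and a replicate block within state gave 291 and 235, against 379 and 356 without a block, with 507 of the 735 genes still called. Whether the replicate numbers pair the libraries was not stated in the labels. DESeq2 called 827 genes, 687 of them among the 735, and limma-voom called 709, 686 of them shared. Leaving out carriers of the 3′ UTR word GCCTTGT, taken from an earlier look at these data, gave 330 higher and 314 lower. Of the 735 genes, 371 were called under every alternative that gave a value. The cause of these changes was not tested.

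Among the 91 named genes with a called difference, the number that lost the call was 25 without resting siEhd1 replicate 1, 16 without replicate 2 and 8 without replicate 3 of that group. It was 16, 12 and 7 without resting siControl replicates 1, 2 and 3, 11, 10 and 9 without the LPS siControl replicates, and 18, 15 and 17 without the LPS siEhd1 replicates, with adjusted p-values of lost calls of at most 0.18. With 3 libraries a group, small effects near the threshold and genes of a few CPM are not resolved.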
